A study of Mus musculus with 24 samples.

Results

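The 10 genes described here encode the proteins that release calcium into the cytoplasm of a muscle fiber and take it up again: Cacna1s, Ryr1, Jph1, Stac3, Casq1, Casq2, Atp2a1, Atp2a2, Sln and Pvalb. They were listed by name for their known part in excitation-contraction coupling, and their Ensembl identifiers were found through the gene symbols of GENCODE M21 (mouse build GRCm38). All 10 were present among the 55487 genes counted, and all 10 passed the filter on low counts in every comparison. RNA was sequenced from the left tibialis anterior (TA), a muscle of the lower leg, of 24 male wild-type C57BL/6J mice aged 5 to 7 weeks, with 6 mice in each of 4 groups. Sedentary PBMT mice received photobiomodulation therapy (PBMT), which was light of 830 nm at 25 mW/cm² for 20 min (30 J/cm²), and the muscle was dissected 24 h later. Sedentary control mice were shaved and anesthetized for the same 20 min without light. Fatigued control and fatigued PBMT mice were handled in the same 2 ways and ran on a treadmill to exhaustion, with the muscle taken immediately after the run and 24 h after the light. Anesthesia, shaving and depilatory cream were shared by all 4 groups, and no group received sham light or heat alone. Sequencing was done in 2 projects of 12 mice, 1 sedentary and 1 fatigued. Exercise and sequencing project therefore coincided and cannot be told apart in any comparison between them.

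The total count per mouse ran from 43271093 to 46904076 in sedentary controls and from 46327516 to 52775844 in sedentary PBMT mice. It ran from 56792327 to 68726155 in fatigued controls and from 53122528 to 68566029 in fatigued PBMT mice. At this depth, 9 of the 10 genes had a median over the 24 mice of at least 39.6 CPM. Sln was the exception, with 7 to 94 counts per mouse. Pairs of mice within a group (60 pairs) differed by 12.6 to 439 times what counting noise alone gives, as chi-square per degree of freedom. CPM is the count of a gene relative to the total of its library after TMM scaling, which corrects totals for a few very abundant genes, on 1 scale for all 24 mice.

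In skeletal muscle, depolarisation of the transverse tubule moves the voltage sensor Cav1.1, which opens the ryanodine receptor of the facing sarcoplasmic reticulum and lets stored calcium out. Calsequestrin binds calcium inside the store, and the SERCA pumps return calcium from the cytoplasm to the store so that the fiber relaxes. Fast fibers, which make up most of the TA, mainly use SERCA1, calsequestrin 1 and the cytoplasmic buffer parvalbumin, whereas slow fibers and heart mainly use SERCA2 and hold more calsequestrin 2.

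Some libraries stood apart and bore on several of the values below. Sedentary control mouse 4 had the highest value of its group for Cacna1s, Ryr1, Atp2a1, Casq1 and Pvalb and the lowest for Sln. Sedentary PBMT mouse 2 was lowest of its group for Cacna1s, Ryr1, Atp2a1 and Jph1. Fatigued control mouse 5 was lowest of its group for 9 of the 10 genes, all except Sln. Without sedentary control mouse 4 or sedentary PBMT mouse 5, the number of all genes called with PBMT in sedentary mice was 18 and 20 in place of 4.

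The 10 genes together took a large part of the RNA counted. Their summed share of all counts was 3.99% to 6.24% in sedentary controls (median 4.36%), 4.05% to 5.19% in sedentary PBMT mice (median 4.56%), 4.69% to 5.95% in fatigued controls (median 5.60%) and 5.00% to 5.88% in fatigued PBMT mice (median 5.19%). Atp2a1 alone took 3.24% of the counts of the 24 mice and ranked 3 among all genes by mean CPM. Pvalb ranked 18, Ryr1 31, Casq1 41 and Cacna1s 75. Jph1 ranked 207, Stac3 497, Atp2a2 2708, Casq2 2780 and Sln 12197.

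Levels of different genes were compared as CPM per kb of exon sequence. In sedentary controls Pvalb stood at 8068 ± 1605 (SD, n = 6) and Atp2a1 at 7947 ± 1443 CPM per kb, and their ranges over mice overlapped. Casq1 followed at 1436 ± 180.4, below both without overlap. The release channel and the voltage sensor came next and overlapped, with Ryr1 at 182 ± 64.9 and Cacna1s at 171 ± 31.3 CPM per kb. Jph1 at 83.6 ± 6.81 and Stac3 at 78.6 ± 4.86 formed the next overlapping pair. Casq2 at 17.2 ± 1.45, Atp2a2 at 5.31 ± 0.442 and Sln at 0.551 ± 0.163 CPM per kb closed the order, each below its neighbour without overlap. In the other 3 groups Atp2a1 had a higher mean than Pvalb, again with overlapping ranges, and the remaining order was the same. In both fatigued groups the ranges of Casq2 and Atp2a2 overlapped, with means of 12.2 ± 3.86 and 7.74 ± 0.942 CPM per kb in fatigued controls.

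**Figure D1:**
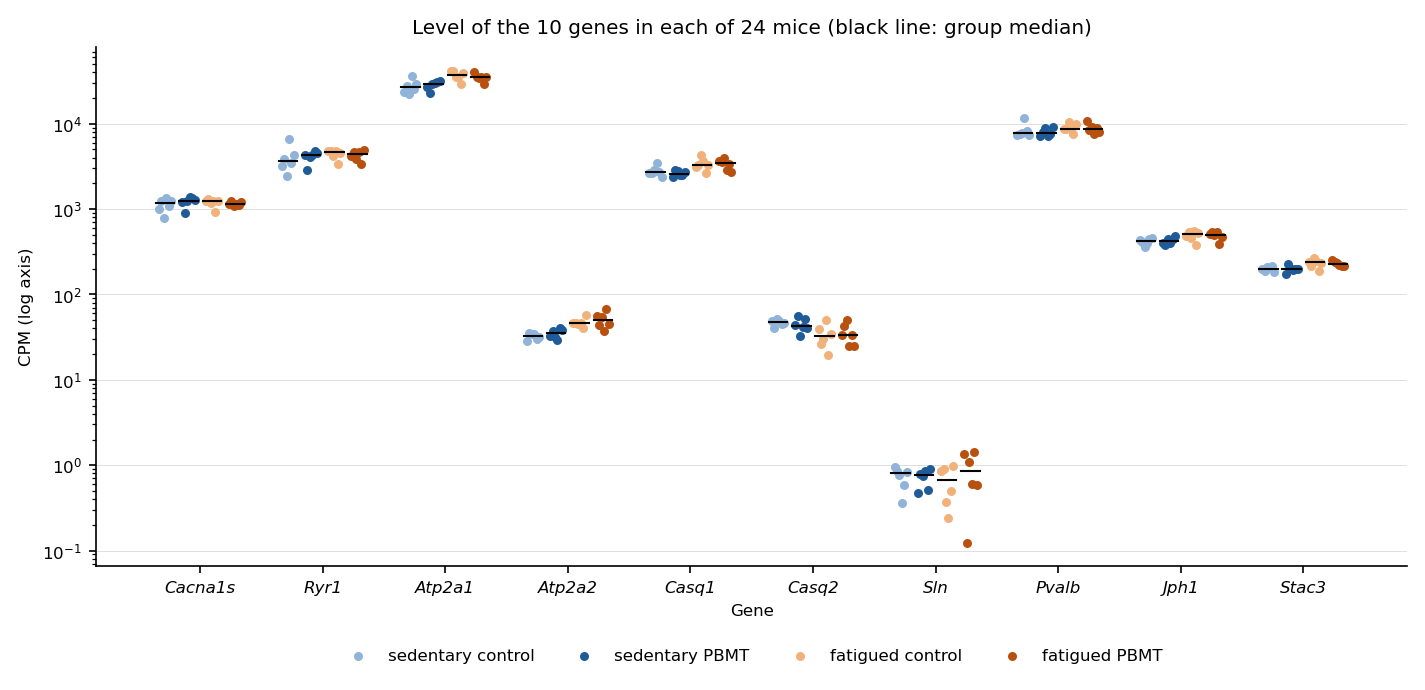
CPM of the 10 calcium release and uptake genes on a log axis, with 1 point per mouse, 4 groups of 6 mice and a black line at each group median. Group medians ran from 26828 to 37632 CPM for Atp2a1 and from 0.676 to 0.852 CPM for Sln, and the 2 fatigued groups of Atp2a2 lay above the sedentary controls, which reached 35.1 CPM.

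The first comparison asked whether PBMT changed these transcripts in resting muscle 24 h after the light. No member passed the test. The quasi-likelihood test of edgeR (two-sided) was run on 14177 genes, and 4 had a Benjamini-Hochberg adjusted p under 0.05, which is 0.0282%. An unadjusted p under 0.05 was seen for 1082 genes, and DESeq2 called 60 and limma voom 47. Among the members the count was 0 of 10, and it was also 0 at an unadjusted p under 0.05, with DESeq2 and with limma voom. Log2 fold changes of the members ran from -0.10 for Casq1 to 0.13 for Cacna1s, 5 above and 5 below 0, with standard errors of 0.069 to 0.25. The smallest adjusted p was 0.714, for Atp2a2. The median of the members was 0.012, beside -0.0019 over all genes tested, and the median absolute change was 0.059 beside 0.11. The CPM ranges of PBMT and control mice overlapped for all 10 members, while 68 of all genes tested (0.48%) had groups that did not overlap.

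The second comparison asked the same of muscle taken after a run to exhaustion. Again no member passed the test. With edgeR 0 of the 14574 genes tested had an adjusted p under 0.05 (0%), 230 had an unadjusted p under 0.05, DESeq2 called 2 and limma voom 0. Among the members 0 of 10 were called by any of these tools, and 0 had an unadjusted p under 0.05 with edgeR. Log2 fold changes ran from -0.084 for Atp2a1 to 0.44 for Sln, 3 above and 7 below 0, with standard errors of 0.075 to 0.48. The median of the members was -0.021, beside 0.0041 over all genes, and the median absolute change was 0.042 beside 0.065. Groups overlapped for all 10 members, and 4 of all genes tested (0.0274%) had groups that did not overlap. The PBMT effect of fatigued minus that of sedentary mice, tested in a fit to all 24, passed for 1 of 15108 genes (0.00662%). It passed for 0 of 10 members, with 0 called with DESeq2 or limma voom. At an unadjusted p under 0.05 stood 0 members in edgeR, beside 665 of 15108 genes, and 1 member in limma voom, beside 953 of 15108. The members ran from -0.18 for Cacna1s to 0.47 for Sln. The value of Cacna1s ran from -0.26 to -0.10 with a mouse left out, and that of Sln was 0.25 without fatigued PBMT mouse 5 and 0.096 with limma voom. The smallest adjusted p of a member was 0.946.

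**Figure D2:**
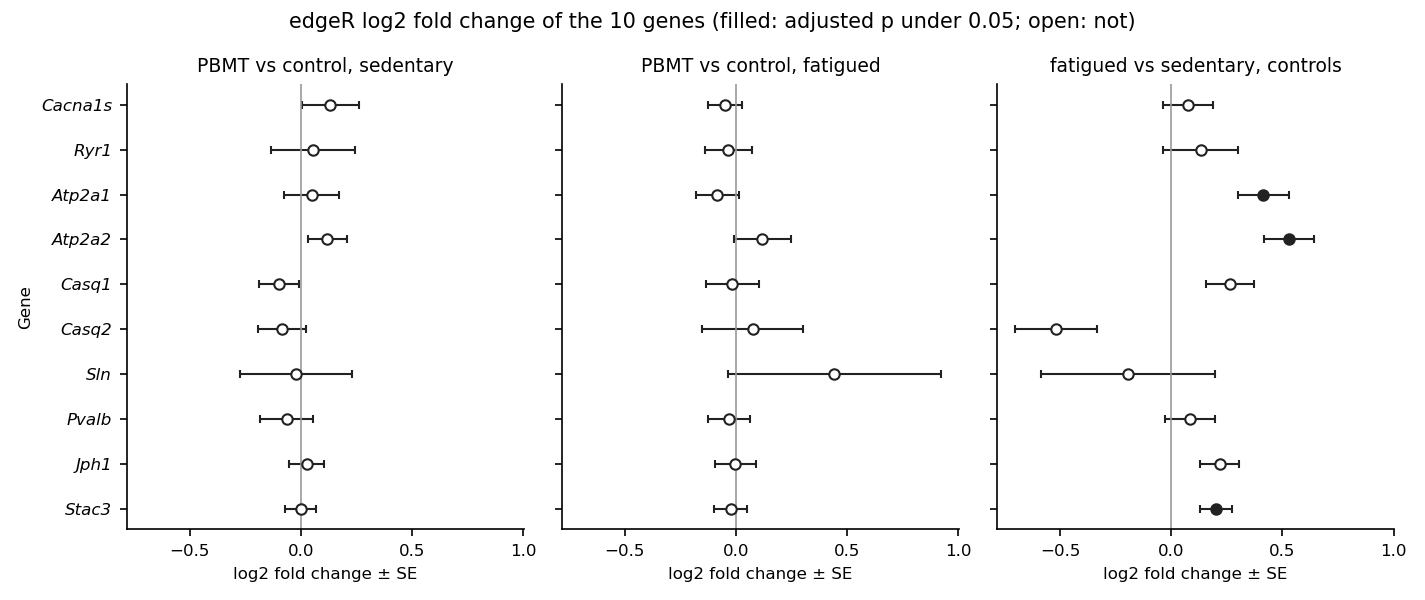
Log2 fold change of the 10 genes with its standard error from edgeR (x axis) for PBMT against control in sedentary and in fatigued mice and for fatigued against sedentary controls. Filled points have an adjusted p under 0.05, which were Atp2a2 at 0.53, Atp2a1 at 0.41 and Stac3 at 0.20 in the panel of controls, and all points of both PBMT panels are open.

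A further comparison set fatigued controls against sedentary controls, 2 groups without light that differed in both the run and the sequencing project. The paper also describes acclimatization to the treadmill before the run, and does not say whether sedentary mice had it. Of the 10 members, 3 were higher in fatigued controls, namely the pumps Atp2a2 and Atp2a1 and the adaptor Stac3. Over all genes 2809 of 15108 passed the test in edgeR, which is 18.6%, with 1375 higher and 1434 lower. The members ran from -0.52 for Casq2 to 0.53 for Atp2a2, 8 above and 2 below 0, with a median of 0.17 beside -0.012 over all genes. An unadjusted p under 0.05 was seen for 6 members and for 4861 of all genes. Groups did not overlap for 1 of 10 members, Atp2a2, and for 1182 of all genes tested (7.82%). The number of members called was 7 with limma voom, where 4905 of 15108 genes were called, 4 with DESeq2 (3209 of 29935) and 2 with GC content trends removed (2933 of 15108). Without fatigued control mouse 5, it was 5 (2496 of 15246).

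Cacna1s (ENSMUSG00000026407, chr1:136052750-136119822, plus strand) encodes the pore-forming subunit of Cav1.1, the voltage sensor. Its CPM was 793 at the lowest, 1164 at the median and 1349.7 at the highest in sedentary controls, and 891, 1258 and 1373 in sedentary PBMT mice. In fatigued mice it was 925, 1237 and 1326 in controls and 1081, 1137 and 1232 with PBMT. The 4 groups overlapped, and sedentary PBMT mouse 2 and fatigued control mouse 5 lay well below the rest of their groups. The log2 fold change with PBMT was 0.13 ± 0.13 (SE) in sedentary and -0.050 ± 0.078 in fatigued mice (edgeR adjusted p = 0.775 and 0.9998). Leaving out 1 mouse, the sedentary value ran from 0.049 (without control mouse 3) to 0.21 (without PBMT mouse 2) and the fatigued value from -0.11 (without control mouse 5) to -0.019 (without control mouse 2).

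Ryr1 (ENSMUSG00000030592, chr7:29003344-29125179, minus strand) encodes the release channel of the sarcoplasmic reticulum. Its CPM was 2451 at the lowest, 3648 at the median and 6565 at the highest in sedentary controls, and 2838, 4266 and 4763 in sedentary PBMT mice. In the fatigued project it was 3334, 4638 and 4829 in controls and 3412, 4406 and 4948 with PBMT. Ryr1 spread most in sedentary controls, where mouse 4 was the highest and mouse 3 the lowest, and all 4 groups overlapped. With PBMT the log2 fold change was 0.055 ± 0.19 in sedentary mice and -0.034 ± 0.11 in fatigued mice. It moved to 0.26 in sedentary mice without control mouse 4 and to -0.052 without control mouse 3, and it was -0.11 with length trends removed. Between the control groups it was 0.13 (edgeR adjusted p = 0.627), 0.34 (adjusted p = 0.0719) without sedentary control mouse 4, 0.042 without sedentary control mouse 3 and 0.016 with length trends removed. With limma voom, which gave each library a quality weight, that comparison passed at 0.33 (adjusted p = 0.0309).

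Jph1 (ENSMUSG00000042686, chr1:16964560-17097889, minus strand) encodes junctophilin 1, which ties the transverse tubule to the sarcoplasmic reticulum. Its highest mouse had 1.53 times the CPM of its lowest, which beside Stac3, also at 1.53, was the narrowest range of the 10 genes. Its CPM was 363 to 455 in sedentary controls (median 420.2), 377 to 481 in sedentary PBMT mice (median 422), 384 to 554 in fatigued controls (median 506) and 394 to 540.2 in fatigued PBMT mice (median 499.6). PBMT and control mice overlapped in both projects, while 5 of 6 fatigued controls lay above every sedentary control. Of these 5, mouse 3 (455.16 CPM) was nearly level with sedentary control mouse 6 (455.11 CPM). The log2 fold change of Jph1 was 0.025 with PBMT in sedentary and -0.0029 in fatigued mice. Between controls it was 0.22 ± 0.087 (edgeR adjusted p = 0.0817), which passed without fatigued control mouse 5 (0.28, adjusted p = 0.0234) and with limma voom (0.22, adjusted p = 0.0212).

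Stac3 (ENSMUSG00000040287, chr10:127501686-127508823, plus strand) encodes an adaptor that Cav1.1 needs for its place in the tubule and its coupling to the release channel. Its CPM was 185 at the lowest, 200.02 at the median and 217 at the highest in sedentary controls, and 174, 199.8 and 227 in sedentary PBMT mice. After the run it was 191, 238 and 266 in controls and 214, 226 and 250.4 with PBMT. Of 6 fatigued controls, 4 lay above every sedentary control, and mouse 5 lay below the sedentary median. The log2 fold change with PBMT was -0.00060 ± 0.069 in sedentary and -0.025 ± 0.075 in fatigued mice. Stac3 was higher in fatigued than in sedentary controls by 0.20 ± 0.071 in log2 (edgeR adjusted p = 0.0476). That call was close to the threshold. It did not pass with GC content trends removed (0.16, adjusted p = 0.128), without a filter on low counts (0.22, adjusted p = 0.0600), or when any of 7 mice was left out, namely fatigued controls 1, 3, 4 and 6 and sedentary controls 1, 2 and 6 (adjusted p = 0.0717 to 0.113).

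Casq1 (ENSMUSG00000007122, chr1:172209894-172219868, minus strand) encodes calsequestrin 1, the main calcium-binding protein inside the store of fast fibers. Its CPM was 2404 at the lowest, 2705 at the median and 3448 at the highest in sedentary controls, and 2362, 2608 and 2838 in sedentary PBMT mice. In fatigued mice it was 2631, 3298 and 4349 in controls and 2686, 3458 and 3999 with PBMT. Sedentary control mouse 4 was above every sedentary PBMT mouse, and the groups of each project overlapped. With PBMT the log2 fold change was -0.099 ± 0.089 in sedentary and -0.018 ± 0.12 in fatigued mice. In sedentary mice it was -0.032 without control mouse 4 and -0.14 without control mouse 6. In fatigued mice it was 0.066 without control mouse 3 and -0.080 without control mouse 5. Between controls it was 0.26 ± 0.11 (edgeR adjusted p = 0.0878), and it passed without sedentary control mouse 4 (0.34, adjusted p = 0.0184), without fatigued control mouse 5 (0.33, adjusted p = 0.0325), with limma voom (0.32, adjusted p = 0.00563) and with transcript length trends removed (0.30, adjusted p = 0.0389).

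Casq2 (ENSMUSG00000027861, chr3:102086415-102146514, plus strand) encodes calsequestrin 2, the form of heart and slow fibers. Its CPM was 40.7 at the lowest, 47.5 at the median and 52.3 at the highest in sedentary controls, and 32.4, 42.5 and 55.8 in sedentary PBMT mice. In the fatigued project it was 19.6, 32.5 and 49.9 in controls and 24.6, 33.5 and 49.99 with PBMT. Of 6 fatigued controls, 5 lay below every sedentary control, and mouse 4, at 49.9 CPM, lay within the sedentary range. Casq2 was the only member besides Sln with a negative difference between the control groups, at -0.52 ± 0.18 in log2. That difference missed the threshold in edgeR (adjusted p = 0.0533) and passed in DESeq2 (-0.51, adjusted p = 0.0326), in limma voom (-0.51, adjusted p = 0.0279), with at least 10 counts in every sample (-0.52, adjusted p = 0.0468), without fatigued control mouse 4 (-0.66, adjusted p = 0.0125) and without fatigued PBMT mouse 3 (-0.51, adjusted p = 0.0444). With PBMT it was -0.086 ± 0.11 in sedentary and 0.075 ± 0.23 in fatigued mice. When 1 mouse was left out, the sedentary value ran from -0.16 (without PBMT mouse 2) to -0.014 (without PBMT mouse 3). The fatigued value ran from -0.051 (without PBMT mouse 3) to 0.22 (without control mouse 4).

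Atp2a1 (ENSMUSG00000030730, chr7:126445858-126463108, minus strand) encodes SERCA1, the calcium pump of fast fibers. Its CPM was 22601 at the lowest, 26828 at the median and 36485 at the highest in sedentary controls, and 23126.5, 29612 and 31759 in sedentary PBMT mice. After the run it was 29386, 37632 and 41952 in controls and 29213, 35088 and 40888 with PBMT. All 6 fatigued controls were above the sedentary control median, and 3 were above sedentary control mouse 4, the highest of its group. Atp2a1 was higher in fatigued controls by 0.41 ± 0.11 in log2 (edgeR adjusted p = 0.0133). That call held in each of 7 other settings and with each of the 24 mice left out, where it ran from 0.37 to 0.51. The log2 fold change with PBMT was 0.048 ± 0.12 in sedentary and -0.084 ± 0.097 in fatigued mice. When 1 mouse was left out, the sedentary value ran from -0.0043 (without control mouse 3) to 0.14 (without control mouse 4). The fatigued value ran from -0.14 (without control mouse 5) to -0.041 (without PBMT mouse 5). Atp2a1 shares 763 exon bases with Rabep2 on the opposite strand, and since the strand setting of the counting is not given in the sources used here, reads of that stretch cannot be told apart. The count of Rabep2 over the 24 mice was 50498, beside 42262832 for Atp2a1.

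Atp2a2 (ENSMUSG00000029467, chr5:122453513-122502225, minus strand) encodes SERCA2, the pump of slow fibers and, in another splice form, of most other cells. Its CPM was 28.5 at the lowest, 32.8 at the median and 35.1 at the highest in sedentary controls, and 29.5, 34.9 and 40.8 in sedentary PBMT mice. In fatigued mice it was 40.9, 46.3 and 57.9 in controls and 37.7, 49.8 and 68.1 with PBMT. All 6 fatigued controls were above all 6 sedentary controls, and fatigued control mouse 6 stood above the rest of its group. Atp2a2 had the largest difference of the members between the control groups, 0.53 ± 0.11 in log2 (1.44-fold, edgeR adjusted p = 0.00177). It passed in each of 7 other settings and with each of the 24 mice left out, where it ran from 0.47 to 0.57. With PBMT the log2 fold change was 0.12 ± 0.087 in sedentary mice, with 3 of 6 PBMT mice above every control, and 0.12 ± 0.13 in fatigued mice, and neither passed (edgeR adjusted p = 0.714 and 0.9998). In fatigued mice it was 0.011 without PBMT mouse 5 and -0.026 with limma voom. In bulk samples fewer cells of a type and less RNA per cell cannot be told apart, and Atp2a2 is also transcribed in cells other than fibers.

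Sln (ENSMUSG00000042045, chr9:53850164-53854560, plus strand) encodes sarcolipin, a small peptide that lowers the efficiency of SERCA pumps. It was the least abundant of the 10 genes. Its CPM was 0.365 at the lowest, 0.805 at the median and 0.941 at the highest in sedentary controls, and 0.478, 0.774 and 0.899 in sedentary PBMT mice. In the fatigued project it was 0.238, 0.676 and 0.982 in controls and 0.124, 0.852 and 1.43 with PBMT. The lowest value came from 7 counts in fatigued PBMT mouse 2 and the highest from 94 counts in mouse 5 of the same group, an 11.6-fold range that was the widest of the 10 genes. Of 6 fatigued PBMT mice, 3 were above every fatigued control and 1 was below every one. With PBMT the log2 fold change was -0.022 ± 0.25 in sedentary and 0.44 ± 0.48 in fatigued mice (edgeR adjusted p = 0.985 and 0.9998). In the fatigued comparison it was 0.23 without PBMT mouse 5, 0.67 without PBMT mouse 2 and -0.098 with limma voom. The difference in fatigued mice was smaller than its standard error.

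Pvalb (ENSMUSG00000005716, chr15:78191114-78206400, minus strand) encodes parvalbumin, a cytoplasmic calcium buffer that speeds relaxation of fast fibers. Its CPM was 7403 at the lowest, 7764 at the median and 11754.5 at the highest in sedentary controls, and 7117, 7824 and 9175 in sedentary PBMT mice. After the run it was 7649.7, 8697 and 10444.5 in controls and 7534, 8626 and 10699.7 with PBMT. Sedentary control mouse 4 was far above the other 5 mice of its group, whose highest value was 8226 CPM, and the groups overlapped. The log2 fold change with PBMT was -0.063 ± 0.12 in sedentary and -0.032 ± 0.095 in fatigued mice, and between controls it was 0.085 ± 0.11 (edgeR adjusted p = 0.644). Without sedentary control mouse 4 the first turned to 0.056 and the last became 0.21 (adjusted p = 0.0932), which was 0.048 without fatigued control mouse 3.

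The balance between slow and fast forms was compared as ratios of counts within each library, which do not depend on scaling. In sedentary controls there were 843 counts of Atp2a1 per count of Atp2a2 at the median (662 to 1058), 57.6 counts of Casq1 per count of Casq2 (51.5 to 71.3) and 33879 counts of Atp2a1 per count of Sln (25187 to 99846). In sedentary PBMT mice the medians were 824, 57.4 and 37192, in fatigued controls 782, 110.8 and 53358, and in fatigued PBMT mice 756, 104.7 and 44767. Casq1 therefore outnumbered Casq2 by more in all 12 fatigued mice than in most sedentary mice, with ratios of 74.4 to 143.6 in fatigued controls above all 6 sedentary controls. The exact permutation test of 6 mice against 6 (924 arrangements, two-sided, smallest possible p = 0.00216) was run on 3 ratios in each project. The log2 ratio of Atp2a2 to Atp2a1 differed with PBMT by 0.055 in sedentary (exact p = 0.684) and by 0.18 in fatigued mice (exact p = 0.368). Casq2 to Casq1 differed by -0.010 (exact p = 0.933) and 0.10 (exact p = 0.578), and Sln to Atp2a1 by -0.057 (exact p = 0.874) and 0.33 (exact p = 0.602). All 6 adjusted values in these exact permutation tests were 0.933, and the ratios were not tested between projects. In fatigued mice the first ratio differed by 0.038 without PBMT mouse 5 and the last by 0.065 without PBMT mouse 5 and 0.83 without PBMT mouse 2.

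A wider list held 60 other genes of calcium handling, 59 of which matched a gene of the annotation. In sedentary mice 56 of them were tested with PBMT. None passed in edgeR, beside 0.0282% of all genes, and DESeq2 and limma voom also called 0. An unadjusted p under 0.05 was seen for 4 of the 56, beside 1082 of 14177 genes. The 4 became 0 with length trends removed (923 of 14177 genes) and 0 without sedentary control mouse 3 (771 of 14270). The median log2 fold change of the 56 was 0.014, with 32 above and 24 below 0. The smallest p belonged to Slc8a1, a sodium-calcium exchanger of the surface membrane, at 16.95 to 24.3 CPM in controls and 23.1 to 27.3 CPM in PBMT mice (log2 fold change 0.21 ± 0.086, edgeR adjusted p = 0.616). All 6 PBMT mice were above the control median and 4 above every control. Itpr1, an inositol trisphosphate receptor, followed at 0.18 ± 0.079 (adjusted p = 0.639) and Smdt1, a subunit of the mitochondrial calcium uniporter, at -0.22 ± 0.0999 (adjusted p = 0.648), where all 6 PBMT mice lay below the control median of 68.9 CPM. With length trends removed Slc8a1 was at 0.053 and Itpr1 at 0.067, and Smdt1 was at -0.11 without control mouse 4.

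In fatigued mice 58 genes of the same list were tested with PBMT. None passed in edgeR, beside 0 of 14574 genes, and DESeq2 and limma voom called 0. An unadjusted p under 0.05 was seen for 0 of the 58, beside 230 of 14574 genes. The median of the 58 was 0.000063, with 29 above and 29 below 0. The smallest p belonged to Slc8a3, another sodium-calcium exchanger, at -0.21 ± 0.10 in edgeR, then to Rcan1, an inhibitor of calcineurin that calcineurin signalling itself induces, at 0.51 ± 0.25, and to the calcium-dependent kinase gene Camk2g at -0.096 ± 0.062, all with an adjusted p of 0.9998. Rcan1 CPM was 85.1 to 185 in fatigued controls (median 123) and 89.8 to 261.5 with PBMT (median 167). Of 6 PBMT mice, 5 were above the control median. For the difference between the PBMT effects 59 genes of the list were tested and 0 passed in edgeR, DESeq2 or limma voom. In edgeR 1 of 15108 genes passed. At an unadjusted p under 0.05 stood 0 of the 59 in edgeR, beside 665 of 15108 genes.

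Between fatigued and sedentary controls 12 of 59 genes of that list passed in edgeR, 7 higher and 5 lower in fatigued controls, beside 18.6% of all genes. The number was 8 with length trends removed (2730 of 15108 genes), 24 with limma voom (4905 of 15108), and 20 without sedentary control mouse 4 (3770 of 15273). Rcan1 had the largest difference, at 44.0 to 60.2 CPM in sedentary and 85.1 to 185 CPM in fatigued controls without overlap (log2 fold change 1.35 ± 0.19, 2.55-fold, edgeR adjusted p = 4.29e-05). The plasma membrane pump Atp2b4 was higher by 0.43 (adjusted p = 0.0236), the calcium-binding chaperone Calr of the endoplasmic reticulum by 0.34 (adjusted p = 0.00292) and Cacng1, the gamma subunit of Cav1.1, by 0.30 (adjusted p = 0.0169). Hrc, Stim2 and Camk2a were the other 3 that were higher, by 0.24 to 0.25.

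Among the genes of that list that passed, the largest falls were those of Slc8a1, Micu3, Mrln and S100a1. Slc8a1 CPM was 16.95 to 24.3 in sedentary and 12.4 to 17.3 in fatigued controls, with 5 of 6 below every sedentary control (log2 fold change -0.54 ± 0.13, edgeR adjusted p = 0.00569). S100a1, a calcium sensor that binds the release channel and the pump, was at 89.1 to 125.5 CPM in sedentary and 76.6 to 87.2 CPM in fatigued controls without overlap (-0.33 ± 0.082, adjusted p = 0.00633). With transcript length trends removed S100a1 was at -0.043 (adjusted p = 0.732). Micu3, a regulator of mitochondrial calcium uptake, fell by 0.36 (adjusted p = 0.00881), which did not pass with GC content trends removed (-0.18, adjusted p = 0.226). Mrln, which encodes the SERCA inhibitor myoregulin, was at -0.36 ± 0.13 (adjusted p = 0.0496). It failed to pass when any of 19 mice was left out (adjusted p = 0.0532 to 0.138) and in 5 of 7 other settings. For Mrln the adjusted p was 0.0538 with the size factors of DESeq2, 0.0965 with no filter, 0.0809 with limma voom and 0.104 with GC content trends removed, and the value turned to 0.073 with length trends removed. Atp2b4 failed with length trends removed (0.32, adjusted p = 0.120) and without fatigued control mouse 4 or 5 or sedentary control mouse 2 (adjusted p = 0.0596 to 0.0613). Tmem38b also fell, by 0.29 (adjusted p = 0.0176).

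Markers of fiber types and other cells were read in the same libraries to check the tissue label. The TA libraries carried the pattern of a fast skeletal muscle. The 8 fast fiber genes summed to 79889 to 128556 CPM in sedentary controls (median 88052), led by Myh4, and the 7 slow fiber genes to 43.3 to 83.4 CPM (median 74.5), led by Myl3. The IIa fiber gene Myh2 was at 542 to 1150.1 CPM (median 764). Of the 6 heart markers, Nppa, Nppb and Myl7 were at or near 0: Nppb had no count in any of the 24 mice, Nppa a count in 3 and Myl7 in 2, each of 1 count. Tnni3 reached at most 13 counts, Myh6 had counts in all 24 mice (median 2.54 CPM, highest 5.74 CPM), and the heart list was led by Sbk2 at a median of 50.2 CPM over the 24 mice.

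Some fiber markers also differed between the control groups, where 18.6% of all genes passed. Fast fiber genes summed to 105842 to 138861 CPM in fatigued controls (median 129358), and 3 of 8 passed as higher in edgeR, namely Myh4 by 0.86, Mybpc2 by 0.46 and Tnnt3 by 0.37 in log2. In general muscle genes 2 of 6 were higher, Acta1 by 0.36 and Ckm by 0.29. Slow fiber genes summed to 31.2 to 109.2 CPM (median 51.1), and 1 of 7 passed, Myl3, the most abundant, which fell by 0.75. The other 6 had log2 fold changes above 0 and did not pass, and the median of the 7 was 0.43. Smooth muscle genes summed to 177 to 259 CPM in sedentary controls and 199.7 to 275 in fatigued controls, with 2 of 5 higher (Myh11 by 0.64 and Acta2 by 0.44). Of the 5, Smtn had the highest median over the 24 mice, at 65.8 CPM. The part of fiber type in the differences of Atp2a1, Atp2a2 and Casq2 between control groups was not tested.

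With PBMT none of the genes tested from these 14 marker lists passed in edgeR in either project, where 2 of 6 heart genes and 0 of 3 keratinocyte genes had enough counts to be tested. At an unadjusted p under 0.05, 2 of 4 endothelium genes, 1 of 3 satellite cell genes and 1 of 4 macrophage genes stood in sedentary mice, beside 1082 of 14177 genes, and 1 of 7 slow fiber genes in fatigued mice, beside 230 of 14574. The fast fiber sum was 83851 to 105259 CPM in sedentary PBMT mice (median 100660.0) and 108252 to 135960.0 CPM in fatigued PBMT mice (median 124871). The slow fiber sum was 46.8 to 72.9 CPM in sedentary PBMT mice (median 63.1) and 43.7 to 131 CPM in fatigued PBMT mice (median 75.0). Among other cell types, sums over the sedentary controls had medians of 213 CPM for endothelium (led by Cdh5), 766 for fibroblast and interstitial genes (led by Col3a1), 90.3 for erythrocytes (led by Hbb-bs), 23.5 for macrophages (led by Mrc1), 6.56 for adipocytes (led by Adipoq) and 2.99 for satellite cells (led by Pax7). In sedentary PBMT mice the medians were 557 CPM for fibroblast and interstitial genes, 16.7 for macrophages, 229 for endothelium and 92.7 for erythrocytes. They were 6.64 for adipocytes and 3.48 for satellite cells. In fatigued controls the medians were 1199 CPM for fibroblast and interstitial genes, 32.7 for macrophages, 248 for endothelium and 83.2 for erythrocytes. In fatigued PBMT mice they were 1145, 33.4, 271 and 87.5 CPM in the same order. The median log2 fold change of the 4 macrophage genes with PBMT was -0.55 in sedentary and 0.13 in fatigued mice. In the lists of endothelium, fibroblast and interstitial, erythrocyte, macrophage, adipocyte and satellite cell genes, 0 passed in edgeR between the control groups. Over all genes 18.6% passed. An unadjusted p under 0.05 was seen for 2 of 4 fibroblast, 2 of 4 erythrocyte, 1 of 4 macrophage and 1 of 4 endothelium genes, beside 4861 of 15108 over all genes. The keratinocyte genes Krt5 and Krt14 had counts in 7 of 24 mice and Krt1 in 4, with a list sum of at most 11.5 CPM.

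Atp2a2, Casq2 and Sln are expressed mainly in slow or oxidative fibers, so their levels were related to the summed slow fiber genes over the 12 mice of each project, with group means removed and permutation tests of 100000 resamples, two-sided. The 6 relations were adjusted together. The resamples shuffled all 12 mice freely and made no allowance for the group means removed. The p-values of these relations are therefore somewhat too small, and calls close to 0.05 are uncertain. In fatigued mice Sln followed the slow fiber sum with r = 0.83 (permutation p = 0.00056, adjusted p = 0.00336) and rho = 0.89 (permutation p = 0.00028, adjusted p = 0.00168), and r stayed at 0.83 without the 2 mice farthest from the median of the sum. Atp2a2 followed it with r = 0.70 (permutation p = 0.0112, adjusted p = 0.0337) and rho = 0.71 (permutation p = 0.0132, adjusted p = 0.0396), with r = 0.58 without those 2 mice. Casq2 did not (r = 0.075, permutation p = 0.814; rho = 0.098, permutation p = 0.767; r = 0.048 without 2 mice). In sedentary mice none of the 3 passed: r was 0.42 for Atp2a2 (permutation p = 0.175, rho = 0.29, r = 0.26 without 2 mice), 0.21 for Casq2 (permutation p = 0.518, rho = 0.45, r = 0.23 without 2 mice) and -0.24 for Sln (permutation p = 0.447, rho = -0.19, r = -0.026 without 2 mice). With Myh7, the slow myosin, in place of the list, Sln in fatigued mice had r = 0.85 (adjusted p = 0.00114) and Atp2a2 r = 0.65, which did not pass (adjusted p = 0.0625) and was 0.34 without 2 mice. In sedentary mice Atp2a2 had r = 0.56 with Myh7, which did not pass (permutation p = 0.0581, adjusted p = 0.116) and was 0.54 without 2 mice. Sln there had r = 0.22 with Myh7 (permutation p = 0.486), of the opposite sign to that with the sum. The difference between projects in these relations was not tested. Much of the sum came from 1 gene, Myl3, with a median of 53.7 CPM in sedentary and 28.8 CPM in fatigued controls. The medians of the sum were 74.5 and 51.1 CPM. The slow fiber sum ranged from 31.2 to 131 CPM over fatigued mice and from 43.3 to 83.4 CPM over sedentary mice. Its 2 highest values in each fatigued group were those of control mice 1 and 6 and PBMT mice 1 and 5. The same mice had the 2 highest sums of Schwann cell genes in their groups, 150 and 121 CPM in controls and 86.7 and 77.6 CPM with PBMT. The relation to Schwann cell genes was not tested.

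**Figure D3:**
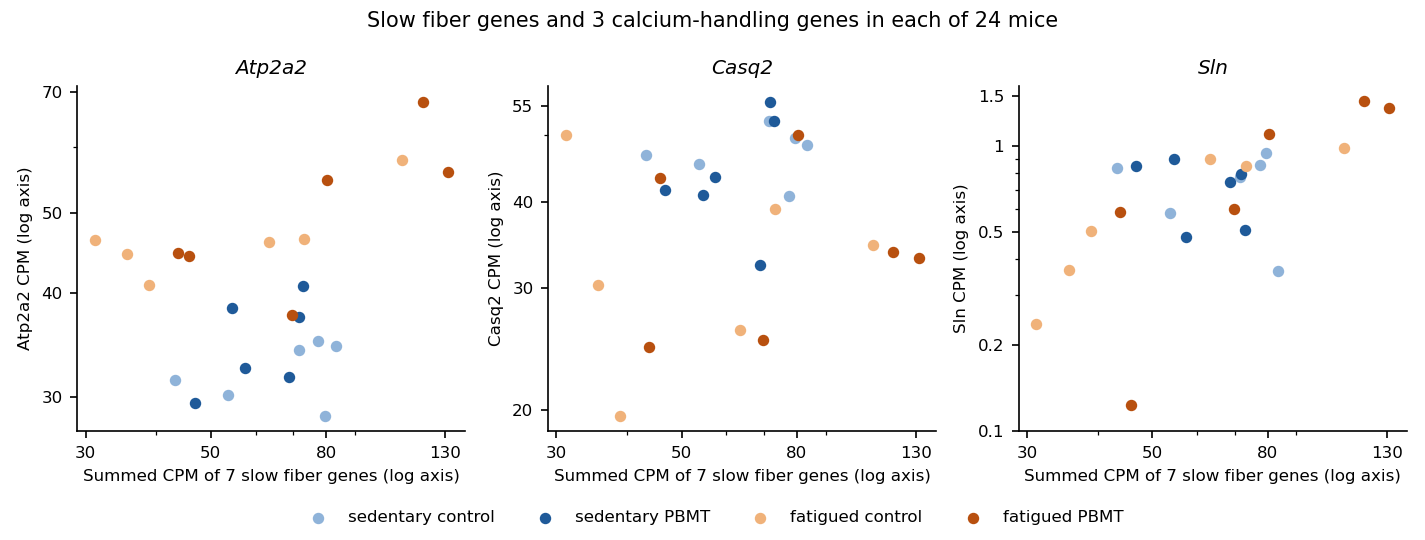
CPM of Atp2a2, Casq2 and Sln (y axes) against the summed CPM of 7 slow fiber genes (x axis), both on log axes, with 1 point per mouse and color for the group. Within the fatigued mice Sln (r = 0.83) and Atp2a2 (r = 0.70) were higher where the slow fiber sum was higher, and Casq2 (r = 0.075) was not.

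The members were also related to each other over the 12 mice of each project, with group means removed. The permutations were of the same kind, so these p-values are also somewhat too small and calls close to 0.05 are uncertain. Of 45 pairs, 4 passed after adjustment over all 90 relations in sedentary mice and 8 in fatigued mice, all with positive r, and 3 pairs passed in both: Cacna1s with Ryr1, Cacna1s with Atp2a1, and Casq1 with Pvalb. The lowest r that passed was 0.88 in sedentary and 0.74 in fatigued mice. Values at least as high were found for 8.89% and 17.8% of the member pairs, beside 0.426% and 1.63% of all pairs among 14021 genes, which were not matched for abundance. Cacna1s and Ryr1 had r = 0.91 (permutation p = 1e-05, the smallest these permutations can give, adjusted p = 0.00045; rho = 0.83) in sedentary and r = 0.84 (permutation p = 0.00038, adjusted p = 0.00774; rho = 0.69) in fatigued mice. Without the 2 mice farthest from the median of Cacna1s r was 0.82 and 0.79. In each pair of this paragraph, the 2 mice left out were chosen by the first gene named only. Cacna1s and Atp2a1 had r = 0.89 (adjusted p = 0.00045, rho = 0.82) and 0.74 (adjusted p = 0.0414, rho = 0.47), with 0.87 and 0.37 without 2 mice. Casq1 and Pvalb had r = 0.88 (adjusted p = 0.00774, rho = 0.85) and 0.77 (adjusted p = 0.0403, rho = 0.71), with 0.74 and 0.61 without 2 mice. Ryr1 and Atp2a1 had r = 0.96 in sedentary mice (adjusted p = 0.0006, rho = 0.92), and 0.92 without 2 mice. In fatigued mice this pair did not pass (r = 0.74, adjusted p = 0.0537, rho = 0.57), with 0.12 without 2 mice. By Spearman's rho no pair passed in fatigued mice (smallest adjusted p = 0.0800), and in sedentary mice the same 4 pairs passed and Casq1 with Stac3 besides (rho = 0.82, adjusted p = 0.0346).

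In fatigued mice Jph1 was related to 3 members, with r = 0.82 to Ryr1 (adjusted p = 0.0339), 0.77 to Atp2a1 and 0.75 to Cacna1s (both adjusted p = 0.0414). Without the 2 mice farthest from the median of the other gene, not of Jph1, these were 0.33, 0.20 and 0.51. The sedentary values were 0.41, 0.44 and 0.55, none of which passed, and the difference between projects was not tested. Stac3 went with Casq1 at r = 0.80 (adjusted p = 0.0217) and with Pvalb at 0.74 (adjusted p = 0.0414) in the same project. Without the 2 mice farthest from the median of Casq1 or of Pvalb, these were 0.58 and 0.56. The longest transcripts of Cacna1s, Ryr1 and Atp2a1 have 6251, 15358 and 3477 bases and a GC content of 54.1%, 58.0% and 55.3%. With a trend on transcript length removed from each library, a setting chosen after seeing the data, r was 0.86 and 0.82 for Cacna1s with Ryr1, 0.94 and 0.86 for Cacna1s with Atp2a1, and 0.82 and 0.75 for Casq1 with Pvalb in sedentary and fatigued mice. By rho 5 pairs then passed in fatigued mice (the 3 among Cacna1s, Ryr1 and Atp2a1, Casq1 with Pvalb, and Atp2a2 with Sln), and Casq1 with Pvalb did not pass in sedentary mice (rho = 0.64, adjusted p = 0.167). By Pearson's r 6 pairs passed in each project and 4 in both, Ryr1 with Atp2a1 being added. Without 2 mice the fatigued r was then 0.78 for Cacna1s with Atp2a1 and 0.46 for Casq1 with Pvalb. In fatigued mice 3 pairs no longer passed: Ryr1 with Jph1 (r = 0.64, adjusted p = 0.126), Cacna1s with Jph1 (r = 0.73, adjusted p = 0.0510) and Pvalb with Stac3 (r = 0.68, adjusted p = 0.0852). The part of GC content in these relations was not tested.

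**Figure D4:**
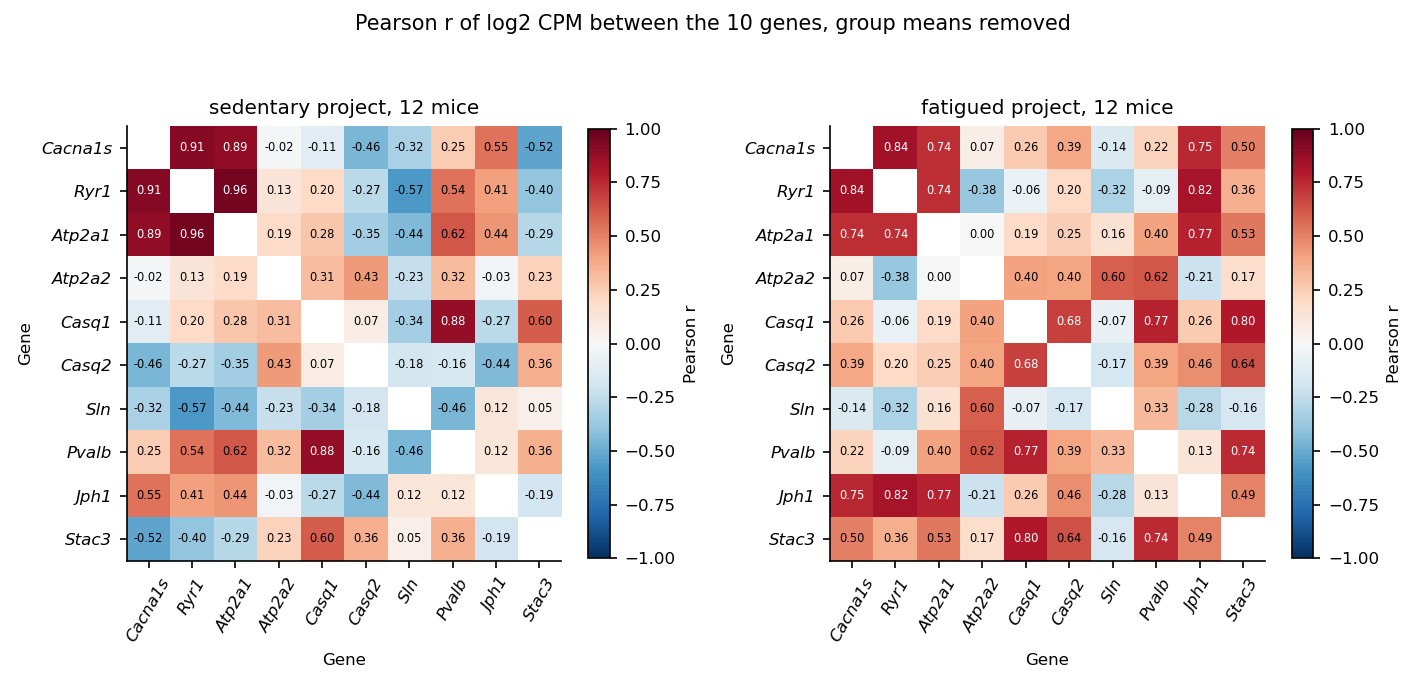
Pearson r of log2 CPM between each pair of the 10 genes over the 12 sedentary mice (left) and the 12 fatigued mice (right), with group means removed and color from -1 to 1. Cacna1s, Ryr1 and Atp2a1 formed a block with r of 0.89 to 0.96 in sedentary mice, and Casq1 with Pvalb reached 0.88 and 0.77.

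The genes most like each member were sought among 14021 genes tested in both projects, by Pearson r of log2 CPM over the 24 mice with group means removed, as a description without a test. Cacna1s was most like Sptb (r = 0.91) and Ryr1 (r = 0.89), and Ryr1 most like Sptb (r = 0.97) and Gcn1l1 (r = 0.96). Atp2a1 was most like Mybbp1a (r = 0.94) and Eef2 (r = 0.93). Casq1 was most like Hspb3 (r = 0.87) and Itgb1bp2 (r = 0.86), Pvalb like Tnnc2 (r = 0.87) and Rpl7 (r = 0.87), and Stac3 like Oaz2 and Hspb3 (both r = 0.80). Jph1 was most like Stau1 and Tmcc1 (both r = 0.83). The likeness was weaker for Atp2a2 and Casq2, with Ckb (r = 0.77) and Ltbp1 (r = 0.74) for Atp2a2 and Nhsl2 (r = 0.76) and St3gal5 (r = 0.75, but 0.38 within sedentary and 0.84 within fatigued mice) for Casq2. Sln was most like Tnnc1, the troponin C of slow fibers (r = 0.85), and Rspo3 (r = 0.82), but r for these 2 was 0.93 and 0.93 within fatigued and 0.14 and 0.023 within sedentary mice. Of these 20 entries, in which Sptb and Hspb3 each appear for 2 members, 4 were also among the 2 highest by Spearman's rho. The longest transcripts of Sptb and Gcn1l1 have 10394 and 8555 bases. Those of Hspb3, Itgb1bp2, Tnnc2, Rpl7 and Oaz2 have 781, 1314, 700, 1597 and 1843 bases. Nhsl2, the gene most like Casq2, has 12971 bases, beside 2556 for Casq2. Length trends were not removed here, and the part of transcript length in the likeness was not tested.

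Promoters from RefSeq (GRCm38.p6), 250 bases before to 50 after the start given in RefSeq, were found for 6 of the 10 members, and had no entry for Atp2a2, Sln, Jph1 and Stac3. The promoters of the 5 genes whose pairs passed in both projects are shown in the direction of the gene, in lower case with motif matches in capitals. The motifs were searched on both strands: the E-boxes CAGCTG and CAGGTG, of the kind that myogenic factors bind, the MEF2 consensus and the CArG box of serum response factor. CAGCTG is in 5355 of all 32851 promoters (16.3%), CAGGTG in 6640 (20.2%), the MEF2 consensus in 1047 (3.19%) and the CArG box in 535 (1.63%). Those of Cacna1s (chr1:136052561-136052860, plus strand) and Atp2a1 (chr7:126463024-126463323, minus strand) hold 1 CAGCTG each, at -123 and -55 from the RefSeq start, which differs from the GENCODE start printed above for all of the 5 genes but Pvalb. That of Casq1 (chr1:172219846-172220145, minus strand) holds CAGCTG at -195 and CAGGTG at -67, and that of Pvalb (chr15:78206351-78206650, minus strand) the MEF2 consensus at -180. The Ryr1 window (chr7:29125102-29125401, minus strand) held none of the 4. Casq2 held 1 match to the MEF2 consensus at -69, no matches overlapped, and a second Pvalb promoter, with none of the 4 motifs, is not shown. A match is a stretch of letters and was not tested for binding.
Cacna1s: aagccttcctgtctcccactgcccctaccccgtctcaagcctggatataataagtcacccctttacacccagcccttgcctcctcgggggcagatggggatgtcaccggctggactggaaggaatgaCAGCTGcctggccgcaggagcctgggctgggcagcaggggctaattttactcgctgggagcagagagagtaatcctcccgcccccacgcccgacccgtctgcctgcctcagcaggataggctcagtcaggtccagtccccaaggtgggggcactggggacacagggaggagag
Ryr1: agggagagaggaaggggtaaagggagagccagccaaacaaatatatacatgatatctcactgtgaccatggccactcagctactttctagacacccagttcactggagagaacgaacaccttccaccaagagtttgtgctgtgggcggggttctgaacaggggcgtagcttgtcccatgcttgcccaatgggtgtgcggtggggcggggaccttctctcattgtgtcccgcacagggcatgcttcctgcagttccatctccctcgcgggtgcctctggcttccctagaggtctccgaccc
Atp2a1: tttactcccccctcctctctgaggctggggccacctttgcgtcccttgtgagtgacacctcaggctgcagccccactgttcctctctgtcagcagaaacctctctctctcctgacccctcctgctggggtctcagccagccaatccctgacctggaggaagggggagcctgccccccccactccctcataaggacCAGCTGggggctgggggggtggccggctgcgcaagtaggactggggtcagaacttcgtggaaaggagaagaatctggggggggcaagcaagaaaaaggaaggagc
Casq1: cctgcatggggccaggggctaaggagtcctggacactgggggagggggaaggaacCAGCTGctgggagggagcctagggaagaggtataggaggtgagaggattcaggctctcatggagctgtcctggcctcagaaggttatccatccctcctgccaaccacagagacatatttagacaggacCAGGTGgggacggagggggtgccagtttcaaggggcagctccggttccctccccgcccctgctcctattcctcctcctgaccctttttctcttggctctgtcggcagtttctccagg
Pvalb: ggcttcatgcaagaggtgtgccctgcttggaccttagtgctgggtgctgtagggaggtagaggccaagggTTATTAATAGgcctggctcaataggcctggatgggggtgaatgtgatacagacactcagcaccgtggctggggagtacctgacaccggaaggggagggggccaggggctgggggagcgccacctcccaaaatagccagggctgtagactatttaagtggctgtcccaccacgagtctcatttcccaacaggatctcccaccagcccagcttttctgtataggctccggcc

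These values have limits. Each group held 6 mice, no group received sham light or heat, and fatigue and sequencing project cannot be told apart. In fatigued mice, light and length of the run cannot be told apart either. RNA was read in whole muscle 24 h after the light, so other times, protein levels, splice forms and calcium itself were not tested. Reads of exons shared with genes of the opposite strand cannot be assigned without the strand setting.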

How the data were processed

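The authors deposited a whole-number count per gene and mouse for each of the 24 mice, without normalization. Whether a count is a read or a read pair, the role of each counting tool and the strand setting are not given in the sources used here. The submitters name Trimmomatic, STAR 2.7.1a, Picard 2.20.4, StringTie 2.0.4, featureCounts 1.6.0 and HTSeq, and the build GRCm38. Depth per mouse was 43271093 to 52775844 counts (sedentary) and 53122528 to 68726155 counts (fatigued). Of 55487 identifiers 55227 matched GENCODE M21, which gave symbols, coordinates, lengths and GC content.

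PBMT was compared with control separately for each project (edgeR 4.0.16 under R 4.3.3): TMM scaling, filterByExpr with a minimum count of 10, robust quasi-likelihood tests, two-sided, with p-values adjusted by Benjamini-Hochberg for every gene tested and a threshold of 0.05. The difference of PBMT effects and the comparison of controls came from a fit to all 24 mice. Relations used log2 CPM with a prior count of 2, group means removed and 100000 resamples, which made no allowance for the means removed. Other computing used Python 3.11.15, numpy 2.4.6, scipy 1.17.1, pandas 2.3.3 and matplotlib 3.10.9.

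The alternatives were DESeq2 1.42.0, limma 3.58.1 voom with sample quality weights, the size factors of DESeq2, no filter on low counts, a filter of 10 counts in each sample, removal of trends on transcript length or GC content (loess, span 0.3), the replicate number as a block with and without length trends removed, all 24 samples in a single model, and leaving out each mouse in turn. Removal of length trends from the relations between members was chosen after seeing the data.

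Genes named are the 10 members, the called and the smallest-p genes of the wider list, marker genes of the lists written from general knowledge, and the 2 genes most like each member. The members and lists were chosen with earlier results of these data known.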

Additional observations from a re-analysis of the deposited data

Results flagged for a closer look

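A value was noted where the gap from a mouse to its nearest neighbour took a larger share of the range of its group of 6 than Dixon's test allows at 0.05. Chance alone gives this in about 1 in 20 groups. Of 160 groups tested 16 passed that mark. The value after each mouse is that share of the range.

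In sedentary controls, mouse 4 stood above the rest for Pvalb (11754.5 CPM, 0.811), Calr (156 CPM, 0.672), Rcan1 (60.2 CPM, 0.642) and the summed fast fiber genes (128556 CPM, 0.724), and mouse 3 for the summed keratinocyte genes (2.14 CPM, 0.938).

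In sedentary PBMT mice, mouse 2 stood below the rest for Cacna1s (891 CPM, 0.659), Ryr1 (2838 CPM, 0.628) and Camk2g (196 CPM, 0.653), and above them for Rcan1 (61.6 CPM, 0.732) and the IIa fiber gene Myh2 (1056 CPM, 0.665). Mouse 4 stood above for the keratinocyte genes (11.5 CPM, 0.716).

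In fatigued controls, mouse 5 stood below the rest for Cacna1s (925 CPM, 0.629), mouse 6 above for Atp2a2 (57.9 CPM, 0.672) and mouse 2 above for the keratinocyte genes (2.62 CPM, 1, the other 5 mice being at 0). In fatigued PBMT mice, mouse 3 stood above the rest for the summed heart genes (114 CPM, 0.741) and mouse 5 for the summed fibroblast and interstitial genes (2977 CPM, 0.669).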

How the results depend on the processing

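With PBMT in sedentary mice the number of members called was 0 and of wider list genes 0 in all 10 other settings and with each mouse left out. The number of all genes called was 4. It was 16 with no filter, 60 with DESeq2, 47 with limma voom, 12 with length trends removed, 16 with GC trends removed, 11 with the replicate number as a block, 14 with the block and length trends removed, and 1 with all 24 samples in a single model. Leaving out 1 mouse gave from 2 (without sedentary control mouse 1) to 20 (without sedentary PBMT mouse 5).

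With PBMT in fatigued mice members and wider list genes called were 0 throughout. All genes called were 2 with DESeq2, 1 with the replicate block and 1 with the block and length trends removed, and 0 otherwise. For the difference of PBMT effects all genes called were 1 in every setting, and from 1 to 3 with a mouse left out (3 without sedentary PBMT mouse 2).

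Members changed sign with PBMT in sedentary mice as follows. Ryr1 was at -0.11 with length trends removed and -0.040 with the replicate block and length trends removed. Sln was at 0.038 and 0.057 in these settings, Pvalb at 0.036 and 0.040, Jph1 at -0.012 and -0.015 and Stac3 at 0.046 and 0.045. With limma voom Pvalb was at 0.0098 and Jph1 at -0.010. With GC trends removed Jph1 was at -0.0032 and Stac3 at 0.041, and Stac3 was at 0.0029 with no filter.

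Leaving out 1 mouse in sedentary mice, values of PBMT against control ran from -0.052 to 0.26 for Ryr1, from -0.0043 to 0.14 for Atp2a1, from -0.16 to 0.068 for Sln, from -0.11 to 0.056 for Pvalb, from -0.015 to 0.060 for Jph1 and from -0.038 to 0.033 for Stac3. Without a change of sign they ran from 0.049 to 0.21 for Cacna1s, from 0.068 to 0.16 for Atp2a2, from -0.14 to -0.032 for Casq1 and from -0.16 to -0.014 for Casq2.

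In fatigued mice limma voom gave -0.026 for Atp2a2, -0.0039 for Casq2 and -0.098 for Sln. The replicate block gave 0.000036 for Jph1, and 0.0011 with length trends removed too. Leaving out 1 mouse gave -0.10 to 0.020 for Ryr1, 0.011 to 0.19 for Atp2a2, -0.080 to 0.066 for Casq1, -0.051 to 0.22 for Casq2, -0.094 to 0.016 for Pvalb, -0.062 to 0.049 for Jph1 and -0.073 to 0.019 for Stac3.

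The difference of PBMT effects changed sign for Ryr1 with length trends removed (0.076) and with the replicate block and length trends removed (0.0065), and for Atp2a2 with no filter (-0.0088), limma voom (-0.13) and the replicate block (-0.011). For Casq1 limma voom gave -0.0045. Pvalb was at -0.10 with limma voom, -0.072 with length trends removed and -0.073 with the replicate block as well. Jph1 was at 0.0031 with limma voom, 0.015 with length trends removed, 0.0013 with GC trends removed and 0.019 with the replicate block and length trends removed. Leaving out 1 mouse gave -0.29 to 0.016 for Ryr1, -0.11 to 0.069 for Atp2a2, -0.090 to 0.081 for Pvalb, -0.088 to 0.025 for Jph1 and -0.072 to 0.020 for Stac3.

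Between the control groups members called were 3, and 7 with limma voom. Wider list genes called were 12, and 24 with limma voom. All genes called were 2809, and 4905 with limma voom. Leaving out 1 mouse gave 2 to 5 members (5 without fatigued control mouse 5), 11 to 20 wider list genes (20 without sedentary control mouse 4) and 2078 to 3770 of all genes. Mrln turned to 0.073 with length trends removed.

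Values with 1 mouse left out between the control groups were 0.19 to 0.34 for Casq1, -0.66 to -0.40 for Casq2, 0.18 to 0.28 for Jph1, 0.17 to 0.25 for Stac3, -0.42 to -0.28 for Mrln and 0.37 to 0.50 for Atp2b4.

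The ratios in sedentary mice ran from -0.025 to 0.13 for Atp2a2 to Atp2a1, from -0.075 to 0.093 for Casq2 to Casq1 and from -0.33 to 0.072 for Sln to Atp2a1 when 1 mouse was left out. In fatigued mice they ran from 0.038 to 0.26, from 0.014 to 0.20 and from 0.065 to 0.83. With Myh7 alone in place of the slow fiber list, r in fatigued mice was 0.65 for Atp2a2 and -0.24 for Casq2, and r in sedentary mice was 0.22 for Sln.

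The labels do not say that mice of the same number were paired. The correlation of a PBMT mouse with the control mouse of the same number ran from -0.071 to 0.066 in sedentary and from -0.084 to 0.33 in fatigued mice, and was the best of the 6 for 1 and 3 mice.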
